A study of Mus musculus with 4 samples.

Results

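The 50 genes described here make proteins of mitosis, and they were followed across 4 mouse lines labelled as neural stem cell (NSC) lines and profiled cell by cell. The genes were taken by name, with earlier results of these data known. All 50 were listed for each line, among 17419 genes listed for any line and 12390 listed for all 4. They were sorted by textbook role into mitotic entry (8 genes), chromosome structure (6), kinetochore (10), spindle checkpoint (3), chromosomal passenger complex (4), anaphase (3), spindle (5), cytokinesis (9), and a remainder of 2. The 4 NSC lines were derived from 129/Sv epiblast stem cells (EpiSCs) and kept with the growth factors EGF and FGF2, each at 10 ng/ml. XN4 and XN1 also received 10 µM XAV939, an inhibitor of Wnt signaling, CN4 received 2 µM CHIR99021, an activator of the same pathway, and KN1 received neither. The study's records place the derivation of XN1 and KN1 in one experiment and that of XN4 and CN4 in another, each by its own experimenter, so that XN4 and XN1 differ in experiment and experimenter as well as in the supplier of their XAV939. CN4 can be set against XN4, and KN1 against XN1, within an experiment, and in the other 4 comparisons the experiment cannot be told apart from the line. Each line is a single derived line, grown to a growing phase, kept in a preservative in the cold, and measured as 1 BD Rhapsody library, in which the polyA RNA of single cells is caught on barcoded beads. With 1 library per line no test between lines was possible, and a difference between lines cannot be told apart from a difference between libraries or clones.

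The tables of cells that the authors drew at random from each library, called selected cells here, held 3927 cells of XN4, 3905 of XN1, 3975 of KN1, and 3448 of CN4, with 19271688 to 41539513 reads per line. The paper describes a draw of the same number of cells from each library. Why the tables held unequal numbers, with the fewest in CN4, is not given in the sources used here. The values are reads and not molecules. To set lines side by side, each cell was thinned at random to 3200 reads, which left out as too shallow 290 in CN4, 776 in XN1, 543 in XN4, and 579 in KN1. Capture of a transcript means that a cell had 1 read of it or more. Levels are given in RPM, the reads of a gene scaled to a common total of reads per line. At equal reads, KN1 cells held a median of 766 genes, against 1650 in XN4, 1809 in XN1, and 1845 in CN4, so that equal reads did not give KN1 equal transcripts. The part of this in the KN1 values below was not tested. The neural label was checked with 10 progenitor genes, of which 10 in CN4, 9 in XN1, 6 in KN1, and 4 in XN4 were captured in at least 10% of cells. In the library labelled XN4, *Sox2* was captured in 0.56% of cells, *Fabp7*, *Sox1*, and *Sox3* were not listed, and 7 of 8 connective tissue genes were captured in at least 10% of cells, with *Col3a1* in 97.8%. Those 8 genes summed to 8429 RPM in XN4 and to 7.66 to 198 in the other lines. These marker values go against the neural label of the XN4 library. The paper's microarrays, by contrast, found *Sox2* expressed in all its NSC lines. The cause of this difference was not tested, and every comparison with XN4 below carries this limit. Of 6 neuronal genes, *Map2* alone reached 10% of cells, in XN1, KN1, and CN4. Apart from median-ratio scaling, an alternative whose factors were set over all 4 lines, comparisons among XN1, KN1, and CN4 take no level from the XN4 library. That library otherwise entered only the rule on which genes were compared. Cell barcodes shared between lines numbered 14 to 21 in the tables of selected cells.

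Mitosis genes are switched on late in the cell cycle. Cyclins A and B with the kinase CDK1 start mitosis, kinetochores on the centromeres hold the microtubules of the spindle, a checkpoint holds back the anaphase-promoting complex until all chromosomes are attached, and CDC20 and UBE2C then let that complex destroy cyclin B and securin before the cells part. Their promoters are known for a short element, TTTGAA, called the cell cycle genes homology region (CHR) and bound by complexes with LIN54, often downstream of CCAAT boxes bound by NF-Y. In dividing neural progenitors these transcripts mark the cells in late S, G2, and M phases.

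The genes of mitotic entry were *Cdk1*, *Ccna2*, *Ccnb1*, *Ccnb2*, *Plk1*, *Aurka*, *Nek2*, and *Cdca3*, which encode cyclins, kinases, and their helpers. Chromosome structure comprised *Mki67*, *Top2a*, *Hmgb2*, *Kif4*, *Kif22*, and *Cdca2*, whose proteins pack, untangle, or move chromosome arms. The kinetochore genes were *Cenpa*, *Cenpe*, *Cenpf*, *Ndc80*, *Nuf2*, *Ska1*, *Knl1*, *Sgo1*, *Sgo2a*, and *Kif2c*, the checkpoint genes were *Bub1*, *Bub1b*, and *Ttk*, and the passenger complex, which corrects faulty attachments, comprised *Aurkb*, *Birc5*, *Incenp*, and *Cdca8*. The anaphase genes were *Cdc20*, *Ube2c*, and *Espl1*, where *Espl1* encodes separase, the protease that cuts cohesin. The spindle genes were *Kif11*, *Tpx2*, *Nusap1*, *Hmmr*, and *Kif18b*, and those of cytokinesis, the division of the cell body, were *Prc1*, *Kif20a*, *Kif20b*, *Kif23*, *Kif14*, *Anln*, *Ect2*, *Racgap1*, and *Cep55*. *Pimreg* and *Depdc1a* made up the remainder.

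Both elements were common in the promoters of the 50 genes, and 4 promoters are shown to let the arrangement be seen. The windows are RefSeq sequences of build GRCm38.p6, 250 bases before to 50 after each start, printed 5′ to 3′ along the gene, with every match to TTTGAA or CCAAT on either strand in capitals. *Cdc20* (chr4:118437294-118437593 on the minus strand) and *Ube2c* (chr2:164769679-164769978 on the plus strand) serve the same step of anaphase, *Plk1* (chr7:122159185-122159484 on the plus strand) encodes a kinase of mitotic entry, and *Kif20b* (chr19:34922108-34922407 on the plus strand), a kinesin of cytokinesis, is a gene with no CCAAT match and with the largest excess in KN1 over CN4 described below.
Cdc20: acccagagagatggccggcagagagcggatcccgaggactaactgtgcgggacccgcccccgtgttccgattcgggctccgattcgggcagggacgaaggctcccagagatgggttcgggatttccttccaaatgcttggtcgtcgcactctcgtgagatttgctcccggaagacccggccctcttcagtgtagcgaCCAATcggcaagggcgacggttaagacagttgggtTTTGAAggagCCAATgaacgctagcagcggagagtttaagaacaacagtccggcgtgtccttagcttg
Ube2c: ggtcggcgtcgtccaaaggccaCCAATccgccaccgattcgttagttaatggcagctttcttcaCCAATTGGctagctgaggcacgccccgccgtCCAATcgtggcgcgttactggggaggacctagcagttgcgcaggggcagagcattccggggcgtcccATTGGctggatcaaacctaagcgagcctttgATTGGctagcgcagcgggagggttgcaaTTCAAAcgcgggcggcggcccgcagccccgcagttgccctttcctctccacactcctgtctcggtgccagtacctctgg
Plk1: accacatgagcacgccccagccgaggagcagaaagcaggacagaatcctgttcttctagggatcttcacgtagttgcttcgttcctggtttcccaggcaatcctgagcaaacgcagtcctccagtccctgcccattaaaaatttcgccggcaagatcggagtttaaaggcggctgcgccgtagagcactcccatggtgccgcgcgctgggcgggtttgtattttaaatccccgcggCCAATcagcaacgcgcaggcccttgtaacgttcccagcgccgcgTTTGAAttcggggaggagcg
Kif20b: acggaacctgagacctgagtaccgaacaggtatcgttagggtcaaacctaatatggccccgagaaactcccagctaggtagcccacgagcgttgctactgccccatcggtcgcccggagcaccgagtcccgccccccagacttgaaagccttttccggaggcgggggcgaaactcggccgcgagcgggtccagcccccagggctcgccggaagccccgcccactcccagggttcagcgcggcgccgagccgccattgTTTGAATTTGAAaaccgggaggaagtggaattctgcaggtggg

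In *Cdc20* a single TTTGAA match begins 18 bases before the start, with a CCAAT match on each side of it. *Ube2c* has 1 TTTGAA match and 6 CCAAT matches, and in *Plk1* the TTTGAA match lies after the start. The table of promoters held 42 of the 50 genes, in 46 windows. *Ccna2*, *Cdca2*, *Pimreg*, *Aurkb*, *Ska1*, *Tpx2*, *Incenp*, and *Kif20a* were not in that table. TTTGAA was found in 78.3% of the 46 windows, against 17.9% of all 32851 windows of the same length, 50% of 30 windows of other mitotic genes, and 5.26% of 19 windows of S-phase genes. CCAAT was found in 78.3% of the windows of the 50 genes, against 37.4% of all windows and 68.4% of those of S-phase genes. Matches of the 2 elements can share at most 1 end letter, and both occurred in 63% of the windows of the mitosis genes and in 6.95% of all windows. Of the 36 windows of mitosis genes with TTTGAA, 91.7% had it within 50 bases of the start, against 27.6% of the 5878 windows of all genes with the element. The bound of 50 bases was chosen after the positions were seen. *Birc5*, *Nuf2*, and *Nusap1* had neither element in the window.

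CN4 had the most cells with many mitosis genes. At 3200 reads per cell, the share of cells with at least 10 of the 50 genes captured was 44.3% (42.6 to 46.1) in CN4, 21.8% (20.4 to 23.3) in XN1, 17.9% (16.6 to 19.2) in XN4, and 19.99% (18.7 to 21.4) in KN1, with 95% exact binomial intervals in parentheses. These intervals, like all those below, cover counting error only. The intervals of folds given below count reads, and reads of the same molecule are not independent, so those intervals are too narrow. XN1 lay above XN4 without overlap of the intervals, and KN1 overlapped both. CN4 lay above all 3 other lines. At the other end, the share of cells with no mitosis gene was 10.5% in CN4, 27.4% in XN1, 37.2% in XN4, and 18.5% in KN1. Of the 50 genes, the median cell held 7 in CN4, 1 in XN1, 1 in XN4, and 4 in KN1, and the richest cell held 40 in CN4, 39 in XN1, 40 in XN4, and 24 in KN1. Cells with 1 to 4 genes made up 32.7% in CN4, 44.2% in XN1, 40.2% in XN4, and 37.4% in KN1. XN4 and XN1 had few cells at 5 to 9 genes, 4.76% and 6.65%. In KN1 24.1% of cells lay there, 19.99% lay at 10 or more, and 0 of 3396 cells reached 25, where CN4 had 15.5%. Cells with 9 or 10 genes, next to the bound of 10, numbered 132 in CN4, 56 in XN1, 55 in XN4, and 264 in KN1. In RPM over all cells, the 50 genes together took 8052 in CN4, 4321 in XN1, 3975 in XN4, and 6699.9 in KN1, so that KN1 stood second by reads and was not set apart from the XN lines by cells with 10 genes.

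**Figure D1:**
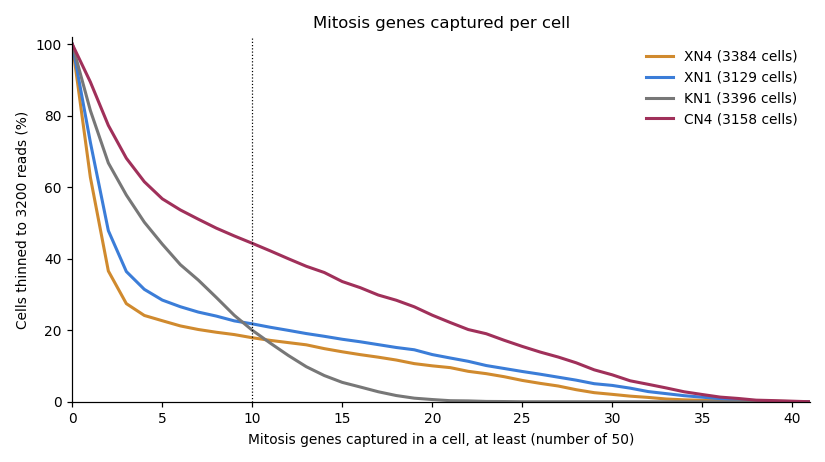
Share of cells (vertical axis, percent) in which at least the given number of the 50 mitosis genes (horizontal axis) was captured, in cells thinned to 3200 reads, 1 curve per line. At 10 genes, the dotted line, CN4 stood at 44.3% and the other lines at 17.9% to 21.8%, and the KN1 curve crossed those of XN4 and XN1 near that point.

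CN4 was the highest line for most of the single genes as well. By share of thinned cells it came first for 48 of the 50 genes. The share of all genes with CN4 first is not given here, and the counts of intervals that follow have such a background. *Anln*, an actin-binding scaffold of the cleavage furrow, was highest in XN1, and *Kif20b* was highest in KN1. The CN4 interval lay wholly above that of XN4 for 49 genes, against 47.4% of all 9902 genes with a mean of at least 10 RPM, above that of XN1 for 48, against 33.3%, and above that of KN1 for 46, against 80.5%. These are intervals over the cells of 1 library per line, and most genes of any kind were captured in more cells of CN4 than of KN1. In the reverse direction no interval of the 50 genes lay wholly above that of CN4, against 25.6% of all genes in XN4, 24.1% in XN1, and 7.43% in KN1. XN1 lay above XN4 for 29 genes (43.4% of all genes) and below it for 1 (27.3%). XN1 lay above KN1 for 24 (76.8%) and below it for 12 (9.65%), and XN4 lay above KN1 for 10 (76.1%) and below it for 15 (11.6%). By the same measure CN4 was at least 2-fold above XN4 for 39 of the 50 genes, against 17.4% of all genes, and above XN1 for 16, against 5.53%. It was at least 2-fold above KN1 for 31, against 63.8% of all genes, so that this count against KN1 was at the background, while the count of intervals wholly above those of KN1 was above it. The lowest line by share was XN4 for 26 genes, KN1 for 20, and XN1 for 4. By RPM CN4 was highest for 32 genes, KN1 for 17, and XN1 for 1, and no gene was highest in XN4. For these counts of lowest and highest lines, too, the shares of all genes are not given here, so they are not read as particular to the mitosis genes. Over the 50 genes the share of thinned cells ran from 2.36% (*Ska1*) to 31.8% (*Hmgb2*) in XN4 and from 3.45% to 61.7%, for the same genes, in CN4.

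**Figure D2:**
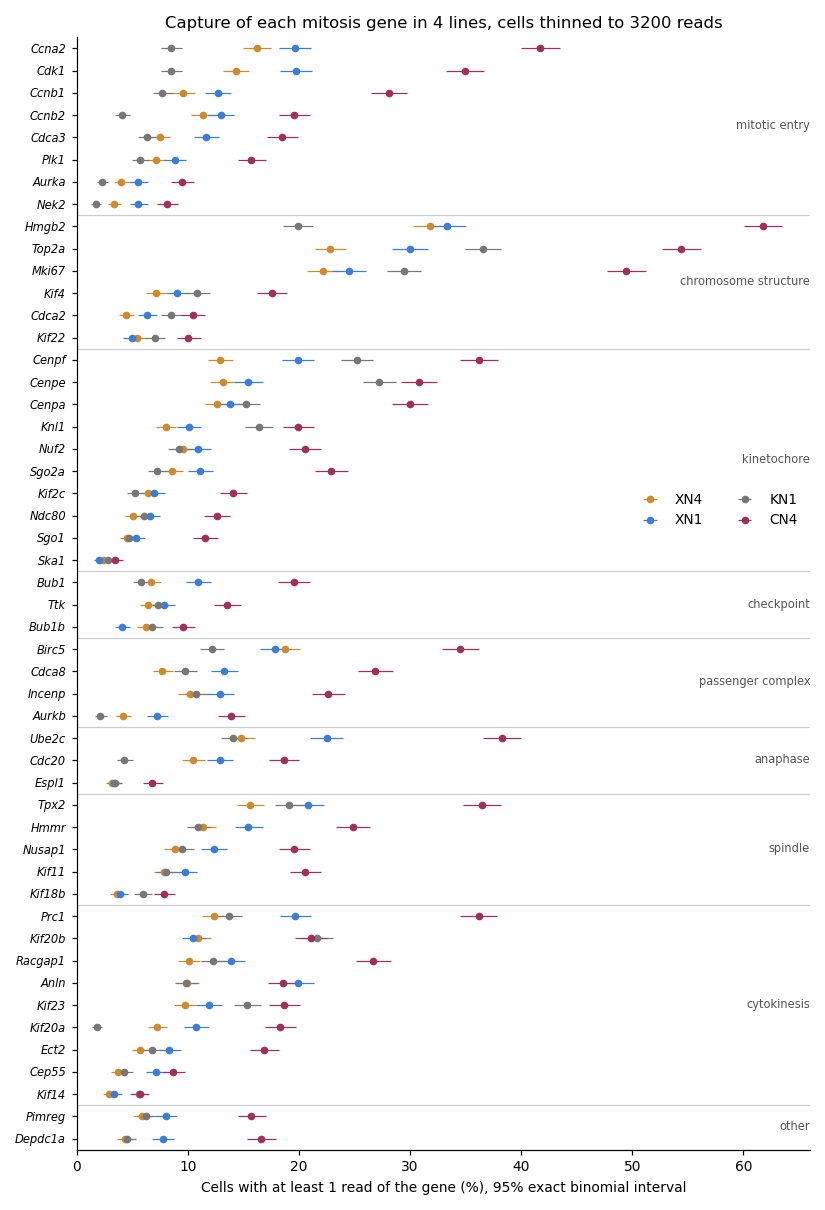
Share of cells with at least 1 read (horizontal axis, percent of cells thinned to 3200 reads) for each of the 50 mitosis genes, sorted by role, with 1 point per line and 95% exact binomial intervals as bars. CN4 points lie farthest right for 48 genes, while the place of KN1 among the other lines changes from gene to gene.

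Among the genes of mitotic entry, the share of thinned cells that captured *Ccna2*, which encodes cyclin A2, was 41.7% (40.01 to 43.5) in CN4, 19.6% (18.2 to 21.1) in XN1, 16.2% (14.996 to 17.5) in XN4, and 8.54% (7.62 to 9.53) in KN1, with 95% intervals in parentheses here and below. *Cdk1*, its kinase partner, was captured in 34.9% (33.3 to 36.6) in CN4, 19.7% (18.3 to 21.2) in XN1, 14.3% (13.1 to 15.5) in XN4, and 8.48% (7.56 to 9.47) in KN1. By share the 4 lines stood in the order CN4, XN1, XN4, and KN1 for both genes, with no overlap of intervals, while by RPM XN4 (166) lay above XN1 (154) for *Ccna2*. *Ccnb1*, the gene of cyclin B1, followed with 28.1% in CN4, 12.7% in XN1, 9.60% in XN4, and 7.71% in KN1. *Ccnb2*, *Plk1*, *Aurka*, *Nek2*, and *Cdca3* also had CN4 highest and KN1 lowest by share. By RPM CN4 was highest for all 8 genes of this group, but KN1 was lowest for 5 of them and XN4 for *Plk1*, *Nek2*, and *Cdca3*. The KN1 and XN4 intervals of the share overlapped for *Ccnb1*, *Plk1*, and *Cdca3*.

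Of the 6 genes of chromosome structure, *Hmgb2* had the same order by share as *Ccna2*, while KN1 was second for the other 5. *Hmgb2*, a chromatin protein of dividing cells, was captured in 61.7% (60.0 to 63.4) in CN4, 33.4% (31.7 to 35.0) in XN1, 31.8% (30.3 to 33.4) in XN4, and 19.9% (18.6 to 21.3) in KN1. *Top2a*, the topoisomerase that untangles sister chromatids, was captured in 54.4% (52.6 to 56.1) in CN4, 30.0% (28.4 to 31.6) in XN1, 22.8% (21.4 to 24.3) in XN4, and 36.6% (34.9 to 38.2) in KN1. *Mki67*, which coats mitotic chromosomes and is used as the Ki-67 marker of proliferation, was captured in 49.5% in CN4, 24.5% in XN1, 22.1% in XN4, and 29.4% in KN1. By share and by RPM alike, KN1 was lowest for *Hmgb2* and second to CN4 for *Top2a*. For *Mki67*, *Kif4*, *Cdca2*, and *Kif22*, KN1 was second to CN4 by share but first by RPM, as for *Mki67* with 593 in KN1 and 520.0 in CN4. Both measures placed KN1 above the XN lines for these genes.

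Kinetochore genes also depended on the measure in KN1. *Cenpf*, a large protein of the outer kinetochore, was captured in 36.2% (34.5 to 37.9) in CN4, 19.9% (18.5 to 21.3) in XN1, 12.9% (11.8 to 14.1) in XN4, and 25.2% (23.8 to 26.7) in KN1. *Cenpe*, a kinesin that carries chromosomes to the spindle equator, was captured in 30.8% (29.2 to 32.5) in CN4, 15.5% (14.2 to 16.8) in XN1, 13.2% (12.03 to 14.3) in XN4, and 27.2% (25.7 to 28.8) in KN1. By share both stood in the order CN4, KN1, XN1, and XN4, with overlap of the XN lines for *Cenpe*. By RPM KN1 was first, with 459 against 331 in CN4 for *Cenpf* and 544 against 229 for *Cenpe*. *Knl1*, the scaffold that docks checkpoint proteins, was likewise second in KN1 by share and first by RPM, and *Cenpa*, the histone of the centromere, was second in KN1 by both. *Sgo2a*, a guardian of centromere cohesion, was captured in 22.9% in CN4, 11.1% in XN1, 8.57% in XN4, and 7.27% in KN1, where KN1 and XN4 overlapped, but by RPM KN1 (85.4) was second to CN4 (124.6). The checkpoint kinase genes *Bub1* and *Ttk* were captured in 19.5% in CN4, 10.96% in XN1, 6.68% in XN4, and 5.80% in KN1, and in 13.6% in CN4, 7.83% in XN1, 6.47% in XN4, and 7.33% in KN1, respectively. The third checkpoint gene, *Bub1b*, was lowest in XN1, at 4.09%, with its interval below those of the other lines. By RPM KN1 was second to CN4 for *Bub1* and first for *Ttk* and *Bub1b*.

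Of the passenger complex, *Birc5* (survivin) was captured in 34.5% (32.9 to 36.2) in CN4, 17.9% (16.5 to 19.3) in XN1, 18.8% (17.5 to 20.1) in XN4, and 12.2% (11.1 to 13.3) in KN1. XN4 and XN1 overlapped for this gene, and XN1 lay above XN4 for the other 3 genes of the complex. *Cdca8* (borealin) was captured in 26.9% in CN4, 13.3% in XN1, 7.71% in XN4, and 9.78% in KN1. Of the anaphase genes, *Ube2c*, the ubiquitin-conjugating enzyme of the anaphase-promoting complex, was captured in 38.3% (36.6 to 39.97) in CN4, 22.5% (21.0 to 24.0) in XN1, 14.8% (13.7 to 16.1) in XN4, and 14.1% (13.0 to 15.3) in KN1, and *Cdc20*, its activator, in 18.6% (17.3 to 20.02) in CN4, 12.9% (11.7 to 14.1) in XN1, 10.5% (9.48 to 11.6) in XN4, and 4.299% (3.64 to 5.04) in KN1. KN1 and XN4 overlapped for *Ube2c*, and KN1 lay below all other lines for *Cdc20*.

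The spindle assembly factor *Tpx2*, which activates the kinase Aurora A, was captured in 36.5% (34.8 to 38.2) in CN4, 20.8% (19.4 to 22.3) in XN1, 15.6% (14.4 to 16.9) in XN4, and 19.1% (17.8 to 20.5) in KN1. KN1 and XN1 overlapped, and both lay above XN4. *Hmmr*, which encodes a spindle-pole protein, was captured in 24.9% in CN4, 15.5% in XN1, 11.4% in XN4, and 10.95% in KN1. In cytokinesis, *Prc1*, which bundles the central spindle, was captured in 36.2% (34.5 to 37.9) in CN4, 19.7% (18.3 to 21.1) in XN1, 12.4% (11.3 to 13.5) in XN4, and 13.7% (12.6 to 14.9) in KN1, and *Racgap1*, a subunit of centralspindlin, in 26.7% in CN4, 13.9% in XN1, 10.1% in XN4, and 12.2% in KN1. The kinesin genes *Kif20a* and *Kif20b* of this group went opposite ways. *Kif20a* was captured in 18.3% (16.999 to 19.7) in CN4, 10.7% (9.67 to 11.9) in XN1, 7.24% (6.39 to 8.17) in XN4, and 1.80% (1.38 to 2.30) in KN1, the lowest share of its group in KN1. *Kif20b* was captured in 21.1% (19.7 to 22.6) in CN4, 10.5% (9.46 to 11.6) in XN1, 10.96% (9.93 to 12.1) in XN4, and 21.6% (20.2 to 23.0) in KN1, where KN1 and CN4 overlapped and both lay above the XN lines. *Pimreg* and *Depdc1a* were captured in 15.7% in CN4, 8.02% in XN1, 5.85% in XN4, and 6.21% in KN1, and in 16.6% in CN4, 7.73% in XN1, 4.34% in XN4, and 4.56% in KN1, respectively. KN1 and XN4 overlapped for both by share, below XN1 and CN4, while by RPM KN1 lay above the XN lines for both.

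Levels in RPM were next compared for the 6 pairs of lines. Genes listed in all 4 lines with a mean of at least 10 RPM (9902, among them all 50 mitosis genes) were counted when past 2-fold. CN4 was at least 2-fold above XN4 for 23 of the 50 genes, against 14.4% of all genes, and at least 2-fold below for 0, against 13.2%. All 50 ratios of CN4 to XN4 were above 1, with a median of 1.96 (all genes 1.03). CN4 was at least 2-fold above XN1 for 11 genes, against 6.42% of all genes, and below for 0, against 6.8%. Here 49 ratios were above 1, with a median of 1.89 (all genes 1.08). With median-ratio scaling the count against XN1 was 7, with 5.24% of all genes. With the mean of the deposited scaled values in place of summed reads, the counts were 39 against XN4, with 16.7% of all genes, and 19 against XN1, with 6.78%. XN4 and XN1 differed past 2-fold for 0 of the 50 genes in each direction, against 13.5% of all genes higher in XN4 and 13.1% higher in XN1. Their median ratio was 0.906, with 19 genes above 1.

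The gene with the largest excess of CN4 over XN4 was *Cdca8*, at 3.29-fold, with levels in RPM of 139 in CN4, 71.1 in XN1, 42.3 in XN4, and 97.3 in KN1. *Depdc1a* (3.08-fold) and *Prc1* (2.81-fold) came next, and *Ccnb2* (1.31-fold), *Bub1b* (1.22-fold), and *Birc5* (1.20-fold) had the smallest excess. Over XN1 the largest excess in CN4 was that of *Hmgb2* (2.44-fold), *Ccnb1* (2.41-fold), and *Bub1b* (2.28-fold), and the smallest ratios were those of *Cep55* (1.21), *Cdc20* (1.18), and *Anln* (0.924). *Bub1b* was therefore near the bottom of one comparison and near the top of the other, and by RPM the XN lines differed most for it. Its level in RPM was 41.5 in CN4, 18.2 in XN1, 33.9 in XN4, and 56.6 in KN1, 1.87-fold higher in XN4 than in XN1. By share of thinned cells the ratio of XN4 to XN1 was 1.52 for *Bub1b*, and the XN lines differed most for *Anln*, at 0.499. By RPM *Birc5* (1.62-fold) and *Kif20b* (1.43-fold) were the next in that direction, and *Anln* (0.642), *Depdc1a* (0.641), and *Cdca8* (0.595) had the smallest ratios of XN4 to XN1.

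Comparisons with KN1 went both ways. KN1 was at least 2-fold above XN4 for 18 of the 50 genes, against 19.3% of all genes, and at least 2-fold above XN1 for 17, against 21.8%. It was at least 2-fold above CN4 for 4, against 17.9%. By share of thinned cells these counts were 2 (7.51% of all genes), 1 (4.71%), and 0 (3.26%), none of them above the background. In the other direction, by RPM, XN4 was past 2-fold for 2 (21.8% of all genes), XN1 for 2 (23.5%), and CN4 for 10 (22.5%). As shares of 50, none of these 3 counts lay above the background. Of the 10 genes higher in CN4, 5 were genes of mitotic entry, out of 8, and 0 of 10 kinetochore genes were among them. This split by role holds for RPM only and was not tested, and role was not separated from gene length, described below. By share of thinned cells kinetochore genes passed 2-fold too, as *Sgo2a* at 3.15-fold, while others such as *Cenpe*, at 1.13-fold, did not. *Kif20a* (4.75-fold), *Ccna2* (3.78-fold), and *Hmgb2* (3.59-fold) had the largest ratios of CN4 to KN1, and *Knl1* (0.414), *Kif14* (0.392), and *Kif20b* (0.338) the smallest. *Kif20b*, *Knl1*, and *Cenpe* had the smallest ratios of both XN lines to KN1, at 0.151, 0.205, and 0.214 for XN1. *Kif20a* and *Cdc20* were the genes highest over KN1 in both XN lines, at 2.99-fold and 2.33-fold for XN1.

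For many genes the direction against KN1 depended on the measure. A gene captured in a cell had a median of 5 reads there in KN1 and of 1 or 2 reads in the other lines, before thinning. *Kif20b* stood at 124 in CN4, 55.6 in XN1, 79.7 in XN4, and 368 in KN1 in RPM, while KN1 and CN4 overlapped in the share of capturing cells. RPM and the share of thinned cells gave opposite directions for 17 of the 50 genes between CN4 and KN1, 20 between XN1 and KN1, and 10 between XN4 and KN1. They did so for 14 genes between XN4 and XN1, and for 0 genes in each comparison of CN4 with an XN line. The shares of all genes with opposite directions are not given here, so these counts are not read as particular to the mitosis genes. Over all genes the median RPM ratio of CN4 to KN1 was 1.11, while the share interval of CN4 lay wholly above that of KN1 for 80.5%. By share of thinned cells, the KN1 excess over CN4 was lost for *Cenpe*, *Knl1*, and *Kif14*, whose ratios of CN4 to KN1 became 1.13, 1.21, and 1.01. The excess of KN1 over XN1 was lost in the same way for *Ndc80*, *Sgo1*, and *Ttk*.

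Where KN1 differed, it differed with the length of the gene. Over the 50 genes the ratio of CN4 to KN1 had a Spearman correlation of -0.649 with the length of the gene on the genome and -0.51 with that of its longest annotated transcript. The values for XN1 to KN1 were -0.615 and -0.548, and those for XN4 to KN1 were -0.645 and -0.522. Among the other lines the correlation with gene length lay between -0.0833 and 0.0952, and that with transcript length was 0.246 for CN4 to XN1, 0.0564 for XN4 to XN1, and 0.0172 for CN4 to XN4. A correlation of the same sign was seen over the 9723 genes with a known length, at -0.439 for CN4 to KN1. The points share the KN1 library. *Kif20b* lies at chr19:34922361-34975745 in GRCm38 and spans 53385 bases, *Knl1* spans 58383, *Cenpe* 61075, and *Kif14* 65169. *Kif20a*, *Ccna2*, *Hmgb2*, and *Cdc20* span 8665, 7286, 4093, and 4452 bases. These genes were named for their ratios, and others depart from the relation. *Ect2* spans 56657 bases at a ratio of CN4 to KN1 of 1.06, and *Cdca3* spans 4155 at 1.37. Reads in introns were counted in the tables of the other 3 lines. Whether that holds for KN1 is not given in the sources used here, and its part in the relation was not tested.

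**Figure D3:**
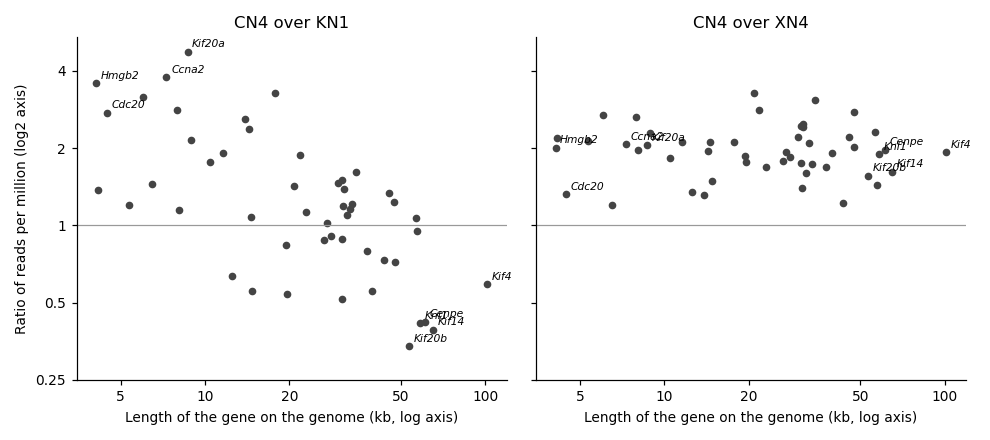
Ratio of RPM of CN4 to KN1 (left) and to XN4 (right), on a log2 axis, against the length of the gene on the genome in kb, on a log axis, with 1 point for each of the 50 mitosis genes. The ratio to KN1 tends to be lower for longer genes, with wide scatter, while the ratio to XN4 stays above 1 at every length. *Kif20a* (4.75) and *Kif20b* (0.338) are the ends of the ratio to KN1 and not of length.

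To see the genes in cells chosen without them, cells were sorted by 35 other mitotic genes and 20 S-phase genes. Mitotic-range cells had at least 4 of the 35 captured, S-range cells at least 4 of the 20 and at most 1 of the 35, and low-range cells at most 1 of the 20 and none of the 35. These are ranges of a score and not cell types. The share of mitotic-range cells was 55.4% (53.6 to 57.1) in CN4, 29.8% (28.2 to 31.4) in XN1, 22.6% (21.2 to 24.0) in XN4, and 36.8% (35.2 to 38.5) in KN1. CN4 was again the highest line and XN4 the lowest, and the intervals of the 4 lines did not overlap. With a bound of at least 6 genes KN1, at 21.7%, and XN1, at 22.5%, lay close together, so that KN1 no longer lay above XN1. The cells with 3 or 4 of the 35 genes, next to the bound, made up 9.49% to 17.9% of cells. Low-range cells numbered 183 in CN4, 563 in XN1, 509 in XN4, and 640 in KN1. In mitotic-range cells all 20 S-phase genes were also at least 2-fold higher than in low-range cells in each line. The rule favors this, since low-range cells had at most 1 of the 20 captured.

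The mitosis genes were high in mitotic-range cells of each line and low in low-range cells. Both ranges were set by genes of the same process, and low-range cells had none of the 35 by rule. This favors such a contrast, so the counts below are descriptions and not independent support. All 50 genes were at least 2-fold higher in mitotic-range than in low-range cells of XN4, XN1, and CN4, against 7.61% of all genes captured in at least 1% of cells in XN4, 7.46% in XN1, and 8.15% in CN4. In KN1 the count was 48, against 10.4%. The median ratio over the 50 genes was 25.6-fold in CN4, 40.8-fold in XN1, 59.1-fold in XN4, and 12.4-fold in KN1, and over all genes it lay between 0.972 and 1.05. Genes without a read in the low range, 13 in CN4 and 0 to 3 in the other lines, entered the medians at the lower bound that 3 reads set, and a further 17 in CN4, 14 in XN1, 22 in XN4, and 3 in KN1 had 1 to 3 reads there. The median gene was captured in 31.9%, 32.6%, and 32.0% of the mitotic-range cells of XN4, XN1, and CN4, and in 15.7% of those of KN1. In the low range it was captured in 0.688% to 1.15% of cells in the 4 lines, the background against which the mitotic-range shares are read. Mitotic-range cells held a median of 1747, 1861, 910, and 1864 genes in XN4, XN1, KN1, and CN4, and low-range cells 1572, 1772, 653, and 1803.

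**Figure D4:**
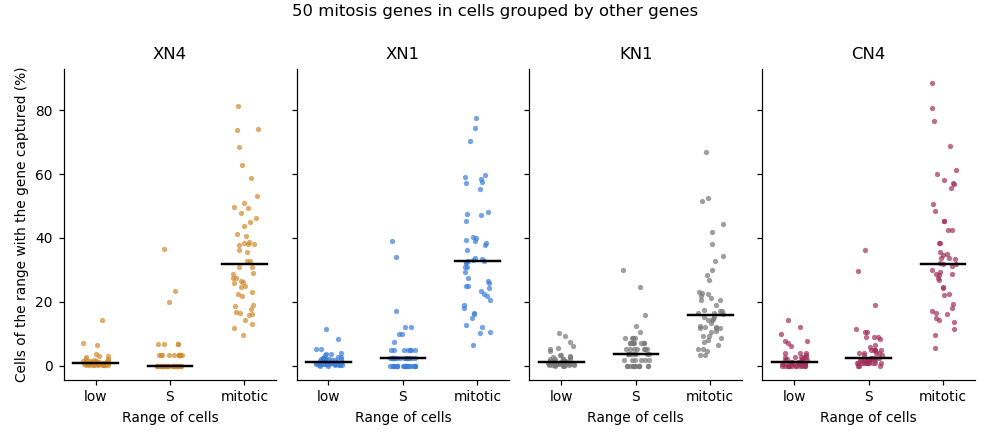
Share of cells with the gene captured (vertical axis, percent) for the 50 mitosis genes in low-range, S-range, and mitotic-range cells, which were chosen by other genes, in 4 panels for the lines, with black bars at the medians. The median gene rises from 1.09% in the low range to 32.0% in the mitotic range of CN4, and to 15.7% in KN1.

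The genes differed in how strictly they were confined to the mitotic range. *Top2a* was captured in mitotic-range against low-range cells at 80.6% against 7.65% in CN4, 74.6% against 8.35% in XN1, 73.7% against 7.07% in XN4, and 67.0% against 4.53% in KN1. *Hmgb2* was captured at 88.6% against 12.02% in CN4, 77.7% against 11.4% in XN1, 81.4% against 14.1% in XN4, and 34.4% against 5.62% in KN1, the highest low-range shares of any of the 50 genes in XN4 and XN1. *Cdc20* was captured at 32.0% against 1.09% in CN4, 39.4% against 1.24% in XN1, 40.6% against 0.982% in XN4, and 7.99% against 0.938% in KN1. *Ube2c* in CN4 stood out with 14.2% of low-range cells, and *Cenpa* and *Cenpf* in KN1 with 10.2% and 9.38%. By RPM and by the median over the lines, the ratio was smallest for *Ccnb2*, *Cdca3*, and *Kif23* and largest for *Pimreg*, *Ndc80*, and *Hmmr*. *Ccnb2* was 15.2-fold (10.1 to 23.9) higher in the mitotic range in XN4, 15.7-fold (9.93 to 26.3) in XN1, 5.74-fold (3.58 to 9.71) in KN1, and 11.8-fold (5.70 to 29.4) in CN4, with exact 95% intervals. For *Hmmr* the values were 104-fold (44.2 to 320.2), 182-fold (62.0 to 883), 24.6-fold (16.2 to 39.4), and 50.04-fold (17.1 to 243) in the same order, above those of *Ccnb2* in each line. The intervals of these genes overlapped in CN4 and did not in the other lines, but they count reads and are too narrow. The genes short of 2-fold in KN1 were *Cdca3*, at 1.66-fold (1.33 to 2.09), and *Cenpa*, at 1.84-fold (1.61 to 2.12). In XN4 they were 40.6-fold (17.2 to 126) and 51.2-fold (27.7 to 107) higher.

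Once only mitotic-range cells were compared, XN4, XN1, and CN4 came closer together, while single genes still differed in both directions from KN1. In RPM of these cells the 50 genes summed to 12873 in CN4, 12275 in XN1, 12999.8 in XN4, and 11689 in KN1, 1.11-fold from the lowest to the highest line, where the sums over all cells spanned 2.03-fold. Genes that differ in opposite directions cancel in such a sum. In low-range cells the sums were 435 in CN4, 328 in XN1, 313 in XN4, and 1305 in KN1, with KN1 the highest. Because the range was set by genes of the same process, a bound of 4 captured genes favors cells alike in level. CN4 was at least 2-fold above XN4 for 0 of the 50 genes within the range, against 13.1% of 9727 genes, and above XN1 for 0, against 5.48%. Neither XN4 (12.9% of all genes) nor XN1 (6.28%) was at least 2-fold above CN4 for any of the 50. The median ratio fell to 0.908 for CN4 to XN4 and to 1.04 for CN4 to XN1. XN4 was past 2-fold over XN1 for 2 genes, *Birc5* and *Bub1b*, against 13.8%, and XN1 over XN4 for 0, against 13.3%. In RPM of mitotic-range cells *Bub1b* stood at 68.5 in CN4, 50.6 in XN1, 111 in XN4, and 102.4 in KN1, and *Birc5* at 328 in CN4, 280.3 in XN1, 579 in XN4, and 211 in KN1.

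Against KN1 the counts within the range were not above the background. CN4, XN1, and XN4 were at least 2-fold above KN1 for 10, 10, and 10 of the 50 genes, against 22.5%, 24.1%, and 21.7% of all genes. KN1 was at least 2-fold above them for 6, 9, and 3, against 18.1%, 20.6%, and 17.9%. As shares of 50, these counts lay below the background in each comparison. Over all cells XN1 and XN4 had each been past 2-fold over KN1 for 2 genes, so that these counts rose within the range, and those of KN1 over XN1 and XN4 fell from 17 and 18. Ratios of CN4 to KN1 ran from 0.268 to 4.80. *Kif20b* and *Kif20a*, which kept their opposite directions, were the genes at these ends. Over XN4, XN1, and CN4 the highest level of a gene was a median of 1.30 times the lowest in mitotic-range cells and 2.05 times in all cells. With KN1 included it was 1.74 times in mitotic-range cells and 2.44 times in all cells.

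**Figure D5:**
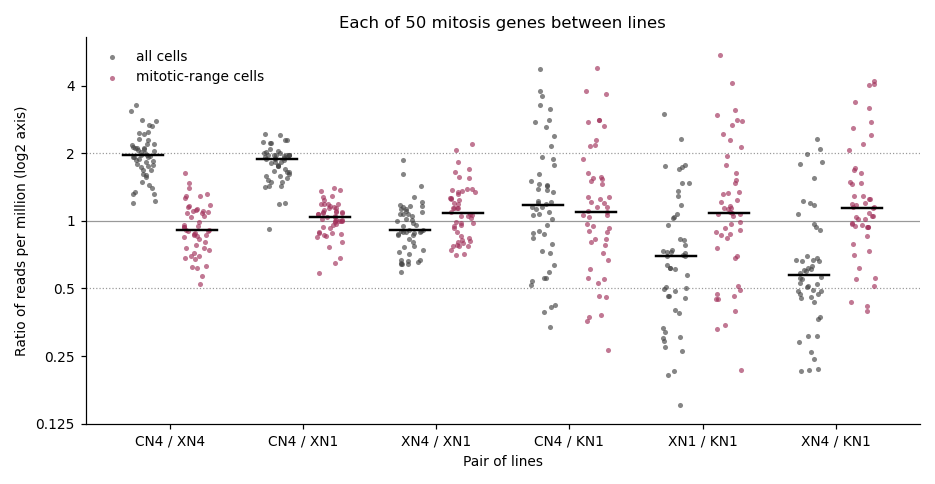
Ratio of RPM between 2 lines (vertical axis, log2) for each of the 50 mitosis genes, over all cells (grey) and within mitotic-range cells (red), with black bars at the medians and dotted lines at 2-fold. For CN4 over XN4 the median moves from 1.96 to 0.908, and for CN4 over XN1 from 1.89 to 1.04, while within mitotic-range cells the ratios to KN1 have medians of 1.09 to 1.15 and a wide spread.

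S-range cells were few, with 122 in CN4, 41 in XN1, 30 in XN4, and 57 in KN1, and in XN4 31 of the 50 genes had no read in them. Only the 122 cells of CN4 are described further. There the 50 genes summed to 1029.7 RPM, between 435 in the low range and 12873 in the mitotic range, and the median gene was captured in 2.46% of cells, against 1.09% in the low range. S-range cells had by rule at most 1 of the 35 other mitotic genes, which favors low levels of the 50 genes too. All 50 genes were at least 2-fold higher in mitotic-range than in S-range cells, against 8.18% of all genes, with a median of 14.8-fold. Of these genes, 3 had no read in the S range, where the floor of 3 reads was used, and 23 had 1 to 3 reads, so that most of the folds behind this count and median rest on few reads. *Cdk1* was 9.43-fold (5.88 to 16.2) higher in the mitotic range, *Hmgb2* 8.29-fold (6.52 to 10.7), *Ccna2* 13.7-fold (8.41 to 24.0), and *Cenpf* 30.0-fold (14.6 to 74.8). *Ccnb1* was 49.3-fold (16.9 to 239) higher, from 3 reads in S-range cells. These intervals count reads and are too narrow, so they do not set *Ccnb1* apart from the other genes. *Hmgb2* was captured in 36.1% of the S-range cells, *Top2a* in 29.5%, and *Ccnb1* in 1.64%.

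The 50 genes were captured together more often than their shares gave, and more often than pairs of other genes. They were chosen with earlier results of these data known, which favors such an excess, so the values are descriptions and not independent support. For a pair of genes, the number of thinned cells with both was divided by the number given by the product of their shares, over pairs with at least 5 such cells. The median ratio over pairs was 2.08 in CN4, 3.66 in XN1, 4.49 in XN4, and 1.84 in KN1. In XN4, XN1, and CN4 all 1186, 1205, and 1225 pairs were above 1, and in KN1 1123 of 1131. Over all pairs of the other genes captured in at least 1% of thinned cells, the same median was 0.999 in CN4, 1 in XN1, 1.01 in XN4, and 1.07 in KN1, and the share of pairs above 1 was 49.4% in CN4, 49.7% in XN1, 52.9% in XN4, and 63.1% in KN1. A ratio of at least 2 was reached by 723 of the pairs of mitosis genes in CN4 and 351 in KN1, against 0.103% and 0.554% of the pairs of other genes. XN4 and XN1, the lines with the most cells without a mitosis gene, had the largest ratios. Pairs within a role did not stand out, with medians of 4.51 within and 4.49 between roles in XN4 and 2.07 and 2.08 in CN4. The pairs of *Nek2*, a kinase that splits centrosomes, had medians of 2.50 in CN4, 4.25 in XN1, 5.31 in XN4, and 1.89 in KN1, and those of *Hmgb2* had 1.498 in CN4, 2.56 in XN1, 2.66 in XN4, and 1.67 in KN1.

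Within mitotic-range cells, co-capture fell to medians of 1.32 in CN4, 1.37 in XN1, 1.29 in XN4, and 1.15 in KN1, against 0.999 in CN4, 0.999 in XN1, 1.003 in XN4, and 1.05 in KN1 over pairs of other genes. Of 1180 pairs with enough cells in all 4 lines, 958 stayed above 1 in each line and 0 lay below 1 in each line, so that no pair of mitosis genes kept apart throughout. *Ccnb1* and *Aurka* had ratios of 1.59 in CN4, 1.76 in XN1, 1.81 in XN4, and 1.70 in KN1. *Aurka* encodes the Aurora A kinase that, with cyclin B1, acts at the entry into mitosis. *Sgo1* and *Kif18b*, the pair with the highest median over the lines, had 1.84 in CN4, 1.93 in XN1, 1.74 in XN4, and 1.10 in KN1. *Top2a* and *Cenpa* were close to independent, with 1.01 in CN4, 1.10 in XN1, 1.03 in XN4, and 1.01 in KN1. The choice of mitotic-range cells for this count was made after the data were seen.

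The number of mitosis genes captured in a cell was then correlated, cell by cell, with capture of every other gene found in at least 1% of thinned cells (10076 to 11269 genes). These values describe sparse captures within a library and carry no test. The 50 genes and the list of other mitotic genes were chosen with earlier results of these data known, which favors likeness among them. Of the 50 genes themselves, each set against the other 49, 47, 48, 40, and 48 were among the 100 most alike genes in XN4, XN1, KN1, and CN4. *Prc1* ranked 1, 3, 11, and 1 in these lines, and *Kif20a* ranked 55, 22, 479, and 21. Outside the list, 14 genes were among the 20 most alike in at least 3 lines. Among them were *Aspm*, *Ckap2*, *Ckap2l*, *Cks2*, *Kif15*, *Pbk*, *Pttg1*, *Smc2*, and *Spc25*, all of the list of other mitotic genes, and *Pclaf*, *Ncapd2*, *H2afx*, and *Prr11*. *Ckap2l*, a spindle protein of neural progenitors, had Pearson's r of 0.64 in CN4, 0.68 in XN1, 0.66 in XN4, and 0.38 in KN1. *Ncapd2*, a subunit of the condensin that compacts chromosomes, had 0.43 in CN4, 0.51 in XN1, 0.58 in XN4, and 0.34 in KN1. *Pclaf*, a partner of the DNA clamp PCNA, was 34.6-fold, 29.7-fold, 5.44-fold, and 12.3-fold higher in mitotic-range than in low-range cells in XN4, XN1, KN1, and CN4.

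At the other end stood *Mxd4*, which encodes a MAX partner that opposes MYC and is known from cells leaving the cycle. It had the lowest correlation of all ranked genes in each of the 4 lines, at -0.24 in CN4, -0.38 in XN1, -0.26 in XN4, and -0.14 in KN1, and is named here after its values were seen. *Mxd4* was captured in 30.6% of low-range against 15.6% of mitotic-range cells in CN4, 74.4% of low-range against 37.8% of mitotic-range cells in XN1, 66.2% of low-range against 38.4% of mitotic-range cells in XN4, and 14.8% of low-range against 4.48% of mitotic-range cells in KN1. Its level in RPM of low-range cells was 2.55-fold in CN4, 2.68-fold in XN1, 2.32-fold in XN4, and 6.31-fold in KN1 that of mitotic-range cells.

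Of 20 genes for the factors known to drive or repress this program, 14 in CN4, 10 in XN1, 11 in XN4, and 11 in KN1 were at least 2-fold higher in mitotic-range than in low-range cells, against 8.15% in CN4, 7.46% in XN1, 7.61% in XN4, and 10.4% in KN1 of all genes. None of the 20 was at least 2-fold lower in any line, against 5.58% in CN4, 4.2% in XN1, 6.7% in XN4, and 4.3% in KN1 of all genes. The values that follow are ratios of RPM in mitotic-range to low-range cells, with exact 95% intervals. *Foxm1*, an activator of mitosis genes, was 7.77-fold (3.004 to 28.7) in CN4, 18.6-fold (7.80 to 58.1) in XN1, 12.2-fold (6.48 to 25.9) in XN4, and 3.92-fold (2.75 to 5.74) in KN1. *E2f7*, a repressor of the E2F family, was at least 8.69-fold in CN4, where the low range had no read, 60.4-fold (10.6 to 2409.5) in XN1, 25.2-fold (9.62 to 93.5) in XN4, and 9.67-fold (6.70 to 14.5) in KN1. *Lin54*, whose protein binds the CHR element, was 9.16-fold (3.55 to 33.8) in CN4, 2.50-fold (1.74 to 3.66) in XN1, 4.15-fold (2.48 to 7.40) in XN4, and 7.80-fold (5.01 to 12.8) in KN1. *Nfya*, which encodes a subunit of NF-Y, was 1.22-fold (0.809 to 1.91) in CN4, 1.245-fold (0.919 to 1.70) in XN1, 1.48-fold (1.125 to 1.96) in XN4, and 1.94-fold (1.49 to 2.54) in KN1, and the intervals included 1 in CN4 and XN1. *Mybl2* (B-MYB) had no read in the low range of XN4 and CN4, was 13.9-fold (3.63 to 118) in XN1, and was 3.36-fold (2.31 to 5.04) in KN1. All of the 35 other mitotic genes and all of the 20 S-phase genes were at least 2-fold higher in each line. For the 35 this follows from the rule. For the 20 the rule favors it, since low-range cells had at most 1 of them captured.

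Among all cells called, of which the selected cells are a part, CN4 was also above XN4 and XN1, with KN1 not compared. In the unselected tables, used here for XN4, XN1, and CN4, *Mki67* was captured in 27.8%, 26.1%, and 60.4% of cells, and in 26.5%, 26.4%, and 55.9% of the selected cells, without thinning. For *Ube2c* the shares were 20.1%, 24.9%, and 52.7% of all cells against 19.1%, 24.6%, and 48.0% of selected cells. After thinning to 3200 reads, 48.3% of 16916 cells of the whole CN4 table had at least 10 mitosis genes captured. The values for the whole XN1 and XN4 tables were 22.2% and 18.6%. In CN4 the 48.3% lay above the interval of the selected cells, 44.3% (42.6 to 46.1), so these cells did not fully match their library. CN4 was at least 2-fold above XN1 for 29 of the 50 genes when every cell was used, against 6.67% of all genes. Unthinned, the selected cells of KN1 captured *Mki67* in 30.7% and *Ube2c* in 16.4%.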

How the data were processed

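Single cells of 4 lines labelled as NSC lines were profiled with the BD Rhapsody whole transcriptome assay, 1 library per line. The deposited counts per cell and gene, used here for XN4, XN1, and CN4, are reads and not molecular identifiers, made by the authors with the BD Rhapsody pipeline on GRCm38 with intronic reads kept. The deposited normalized tables of all 4 lines hold natural log values, which the authors made with Seurat 4.3.0 from a random draw of cells after removing ribosomal protein and mitochondrial genes, as the natural log of 1 plus reads scaled to 10000 per cell. These were turned back into whole reads, and 100% of the values above 0 came out whole within 0.01. For KN1 the normalized table alone was used here.

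The members and all gene lists were chosen with earlier results of these data known. Cells were thinned to 3200 reads, and a transcript was captured at 1 read or more. Levels were reads of a gene scaled to a common total (RPM) over all cells of a line, and genes were compared at a mean of at least 10 RPM. With 1 library per line no test was made: shares carry exact binomial and levels exact Poisson 95% intervals, and genes were counted past 2-fold. A fold against 0 reads used a floor of 3 reads and is a lower bound. No doublet caller was run, and the 5% of cells with the most reads were left out as an alternative. Named were the 2 members of each role captured in the most cells, the 3 at each end of each comparison of lines or of mitotic-range to low-range cells (the same for S-range cells is left out, since many genes had 0 to 3 reads there), and the non-members among the 20 most alike genes in at least 3 lines. A gene that this rule names is not reported here. Further members named beside them, such as *Mki67* and *Sgo2a*, the driver genes given with values, *Mxd4*, and the pairs and promoters shown were chosen after their values were seen. Alternatives were the capture and thinning depth, the bounds of the ranges, the fold, the scaling, the filter, and all called cells. Scripts were tested on simulated data and run with Python 3.11.15, numpy 2.4.6, pandas 2.3.3, scipy 1.17.1, and matplotlib 3.10.9.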

Additional observations from a re-analysis of the deposited data

How the results depend on the processing

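Depth, cell selection, and capture efficiency differ between single libraries, so a difference between lines carries no check beyond counting error, and reads of one molecule are not independent. In all 149 alternative values for the comparisons, 77 stayed within the main value's interval or within 1.5 times a count and 72 moved. The share of cells with at least 10 mitosis genes was highest in CN4 under each alternative. With values listed for XN4, then XN1, then KN1, then CN4, it was 10.02%, 12.2%, 8.39%, 21.9% with capture at 2 reads, 12.6%, 16.2%, 10.04%, 32.0% at 1600 reads per cell, 22.7%, 28.4%, 44.1%, 56.8% for at least 5 genes, and 14.0%, 17.5%, 5.42%, 33.6% for at least 15. It was 23.3% in KN1 and 50.3% in CN4 without thinning, 18.01% in KN1 without the 5% of cells with most reads, and 48.3% in CN4 over all called cells. The share of mitotic-range cells was 49.2%, 55.5%, 59.0%, 76.8% with at least 2 genes, 18.1%, 22.5%, 21.7%, 43.9% with at least 6, and 15.9%, 20.7%, 25.2%, 41.5% at 1600 reads per cell, and 32.9%, 34.9%, and 66.3% in XN4, XN1, and CN4 without thinning. With at least 6 genes KN1 no longer lay above XN1. Counts of mitosis genes past the fold, each with the share of all genes past it in parentheses, became, at 1.5-fold, 10 for KN1 over CN4 (27.1%), 6 for XN1 over KN1 (34.5%), 6 for XN4 over KN1 (33.2%), 33 for KN1 over XN4 (28.3%), 42 for CN4 over XN1 (18.2%), 2 for XN4 over XN1 (25%), 7 for XN1 over XN4 (21.2%) and 42 for CN4 over XN4 (25.5%). By share of thinned cells they were 31 for CN4 over KN1 (63.8%), 0 for KN1 over CN4 (3.26%), 9 for XN1 over KN1 (60.2%), 1 for KN1 over XN1 (4.71%), 2 for KN1 over XN4 (7.51%), 1 for XN1 over XN4 (15.1%) and 39 for CN4 over XN4 (17.4%). By the mean of the deposited scaled values they were 0 for XN4 over KN1 (20.8%), 19 for CN4 over XN1 (6.78%), 3 for XN1 over XN4 (14.5%) and 39 for CN4 over XN4 (16.7%). With median-ratio scaling they were 8 for KN1 over CN4 (21.2%), 1 for XN4 over KN1 (19.4%) and 7 for CN4 over XN1 (5.24%), and over all called cells 29 for CN4 over XN1 (6.67%). Within mitotic-range cells, an alternative chosen after seeing the data, they were 10 for XN1 over KN1 (24.1%), 9 for KN1 over XN1 (20.6%), 10 for XN4 over KN1 (21.7%), 3 for KN1 over XN4 (17.9%), 0 for CN4 over XN1 (5.48%), 2 for XN4 over XN1 (13.8%) and 0 for CN4 over XN4 (13.1%). The median ratio of mitotic-range to low-range cells was 28.0 in XN4 and 22.9 in XN1 with at least 2 genes, and 15.99 in CN4 by share of cells. Median co-capture within mitotic-range cells, likewise chosen after seeing the data, was 1.29, 1.37, 1.15, 1.32 in the same order of lines. Of 450 alternative values for named genes, 361 stayed near the main value, 85 moved, and 4 reversed a ratio past 2-fold. Beside these 4, 26 ratios within 2-fold lay on the other side of 1, 16 by share of thinned cells and 10 by other alternatives. The 4 came by share of thinned cells, where the ratio of CN4 to KN1 became 1.13 for *Cenpe*, 1.21 for *Knl1*, and 1.01 for *Kif14*, and that of XN1 to KN1 became 1.07 for *Ttk*. The cause of these changes was not tested. No paired analysis was possible because each line has 1 library, and the number in a line's name stands for a derivation experiment that holds 2 of the 4 lines, each in a different medium.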
